A study of Mus musculus with 9 samples.

Results

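The DNA damage repair and checkpoint genes described here are 51 genes that sense DNA breaks, halt the cell cycle or repair damage, chosen as a named list and sorted into 9 pathways by the known role of their products. All 51 were found by symbol among the 24341 genes measured, and all 51 passed the filter on low counts in every comparison. The samples were polyadenylated RNA of cultured mouse fibroblasts taken from embryos (MEFs) with the genotype labels WT, *Atm-/-* or *Sirt6-/-*, with 3 samples for each label and 9 in all. Every sample was labelled strain C57BL/6 and grown in DMEM with 10% fetal bovine serum, and no treatment, passage or embryo age was given for any group. ATM is the kinase that starts the response to double-strand breaks, and SIRT6 is a chromatin deacetylase that takes part in break repair and whose loss ages mice early. The notes on how the cells were made also name mice that lack p53, alone and together with *Atm*, and the study's methods describe the *Atm-/-* p53-/- and *Sirt6-/-* MEFs as immortalised cells given by other laboratories. Which of these cells were sequenced, and whether the 3 samples of a label came from separate embryos or cultures, was not given, so p-values measure the spread between these samples, which may be technical.

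The labels were checked on the targeted genes. *Sirt6* read 15.3, 12.9 and 15 CPM (read counts scaled to a common library size) in WT, 12.2, 11.1 and 10.8 in the libraries labelled *Atm-/-* and 0.123, 0.154 and 0.21 in *Sirt6-/-*. *Atm* went against its label at the level of the whole gene, with 48.2, 51.7 and 51.7 CPM in WT, 109, 102 and 102 in the libraries labelled *Atm-/-* and 73.3, 72.4 and 62.1 in *Sirt6-/-*. Counts summed over a gene cannot show whether an exon is missing, so the libraries are called by their label here. *Trp53*, which encodes p53, read 223, 227 and 208 CPM in WT, 23.3, 27 and 27.4 in the libraries labelled *Atm-/-* and 279, 282 and 276 in *Sirt6-/-*. The 3 libraries labelled *Atm-/-* lay far below all others for *Trp53*, and what belongs to *Atm* and what to p53 in those cells cannot be told apart. *Cdkn1a*, the p53 target that encodes the cell cycle inhibitor p21, read 41.7, 26.6 and 24.2 CPM in WT, 12.3, 15.8 and 13.4 in the libraries labelled *Atm-/-* and 6.14, 6.33 and 6.33 in *Sirt6-/-*. It fell in both, by 2.24-fold in the libraries labelled *Atm-/-* and by 4.91-fold in *Sirt6-/-*. *Trp53* and its targets *Cdkn1a*, *Mdm2* and *Ccng1* were all lower in the libraries labelled *Atm-/-*, 3 of the 4 by at least 2-fold. In *Sirt6-/-* 3 of the 4 were lower, each by at least 2-fold, and *Trp53* was higher. Of all genes tested, 9.85% and 11.8% were lower by that much. The part that p53 plays in the *Sirt6-/-* values was not tested.

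The libraries held 32187040 to 33837949 reads assigned to genes, so depth differed little between labels. All 9 fibroblast markers examined were detected, 8 being lower and 1 higher than WT in the libraries labelled *Atm-/-* and 6 lower and 3 higher in *Sirt6-/-*. Their summed level ran from 27682 to 30581 CPM in WT, from 8997 to 9255 CPM in the libraries labelled *Atm-/-* and from 19307 to 19762 CPM in *Sirt6-/-*. Summed as deposited RPKM (reads scaled by gene length and library size), they gave 6851 to 7227, 3413 to 3445 and 7149 to 7199. The sum was thus lower in *Sirt6-/-* in CPM only. The largest fall of a single marker was log2 -4.36 in the libraries labelled *Atm-/-* and -5.69 in *Sirt6-/-*. Of the 18 markers of other cell types, 7 to 8 were too low to test in a comparison, among them *Pecam1*, *Cdh5*, *Ptprc*, *Myod1* and *Pou5f1*, and *Pou5f1* and *Myog* had no reads at all. Neural markers summed to 2.06 to 2.54 CPM in WT against 25.1 to 35.5 and 28.7 to 30.3 CPM in the libraries labelled *Atm-/-* and *Sirt6-/-*, and epithelial markers to 18.2 to 21.6, 41.0 to 46.2 and 14.1 to 17.98 CPM. The close neural sums of the mutants came from different genes. Of 2 neural markers tested directly, 1 was higher and 1 lower in the libraries labelled *Atm-/-* (log2 8.20 and -1.47). Endothelial markers summed to 2.86 to 4.89, 9.81 to 12.5 and 0.552 to 0.84 CPM and haematopoietic ones to 10.7 to 11.8, 3.4 to 3.61 and 3.53 to 4.2 CPM, in the order WT, *Atm-/-* and *Sirt6-/-*, and muscle and pluripotency markers stayed at or below 2.69 CPM. The part that a different mix of cells plays in the values below was not tested, and in bulk RNA fewer cells of a type and less RNA per cell cannot be told apart.

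Cells meet DNA damage with a relay. Sensors bind the broken end or the altered base, kinases carry the signal to the checkpoint that stops division, and a pathway suited to the lesion restores the DNA. Double-strand breaks are rejoined directly by end joining at any time in the cycle or copied from the sister chromatid by homologous recombination, which is used after replication, so many recombination and checkpoint genes are made mostly in dividing cells. Small base lesions go to base excision repair, bulky ones to nucleotide excision repair and copying errors to mismatch repair, while a few lesions are reversed in 1 step. Dividing fibroblasts express genes of all these pathways, and the values below are levels of messenger RNA, not of repair.

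Within WT cells the genes covered a wide range of levels per length (RPKM, reads scaled by gene length and library size, as deposited, mean ± SD, n = 3). *H2afx*, which encodes the histone variant H2A.X that is phosphorylated at breaks, was the highest at 104 ± 4.36 RPKM. *Parp1*, the main sensor of single-strand nicks, followed at 61.6 ± 0.66, with *Msh6*, *Apex1* and *Topbp1* at 53.5 ± 0.566, 53.4 ± 6.32 and 53.3 ± 4.35. These 3 did not differ beyond their spread. At the low end stood the recombination genes *Rad51c* (1.88 ± 0.0512), *Rad51b* (2.2 ± 0.298) and *Rad51d* (2.38 ± 0.0647) and the glycosylase *Neil1* (2.37 ± 0.0521), and neighbours in this order overlapped in their spread. Single genes of signalling, nick sensing and mismatch recognition were thus among the most abundant, and these recombination genes among the least. The *Apex1* value is uncertain, since 61.7% of its exonic bases overlap another gene. The median over the 51 genes was 10.0 RPKM in WT, 10.5 in the libraries labelled *Atm-/-* and 8.92 in *Sirt6-/-*, beside 8.81, 9.54 and 9.51 RPKM over the 13358 genes with a mean of at least 10 reads.

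Against WT, most of the repair and checkpoint genes differed in level in both mutants, as did most of all genes tested, but by small amounts. A gene was called when its adjusted p was under 0.05 in the quasi-likelihood test of edgeR, adjusted by Benjamini and Hochberg's method over all genes tested. Called either way were 39 of 51 genes in the libraries labelled *Atm-/-* (76.5%), beside 9080 of all 13283. In *Sirt6-/-* they were 40 of 51 (78.4%), beside 10114 of all 13206. In the libraries labelled *Atm-/-*, 27 of 51 genes were higher (52.9%, where 34.7% of all 13283 genes tested were called higher) and 12 were lower (23.5%, against 33.6% of all genes). In *Sirt6-/-*, 17 of 51 were higher (33.3%, against 39.2% of all 13206 genes) and 23 were lower (45.1%, against 37.4%). The *Sirt6-/-* shares lay near those of all genes, while in the libraries labelled *Atm-/-* the higher share lay above the background and the lower share below it. The median log2 fold change over the list was 0.21 in the libraries labelled *Atm-/-* and -0.12 in *Sirt6-/-*, with 0.02 over all genes in each comparison. Scaled to library totals instead of by TMM, the scaling of edgeR that centres the bulk of genes on no change, the median of all genes moved up by 0.16 and 0.09 on the log2 scale and the split became 31 higher and 7 lower in the libraries labelled *Atm-/-* (60.8% and 13.7%, against 46.3% and 25% of all genes under that scaling). In *Sirt6-/-* it became 17 higher and 13 lower (33.3% and 25.5%, against 43.9% and 32.7%), so its balance turned with the scaling, as that of all genes moved the same way.

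Large changes were few. At 2-fold or more, 1 gene was higher and 1 lower in the libraries labelled *Atm-/-* (1.96% each, against 12.6% and 9.85% of all genes), and 2 were higher and 4 lower in *Sirt6-/-* (3.92% and 7.84%, against 17.5% and 11.8%). These were *Xrcc4*, *Wrn* and *Neil1* on the higher side and *Mgmt*, *Ung*, *Chek2* and *Msh6* on the lower. The typical gene moved by less, with a median size of 0.34 on the log2 scale in each mutant.

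**Figure D1:**
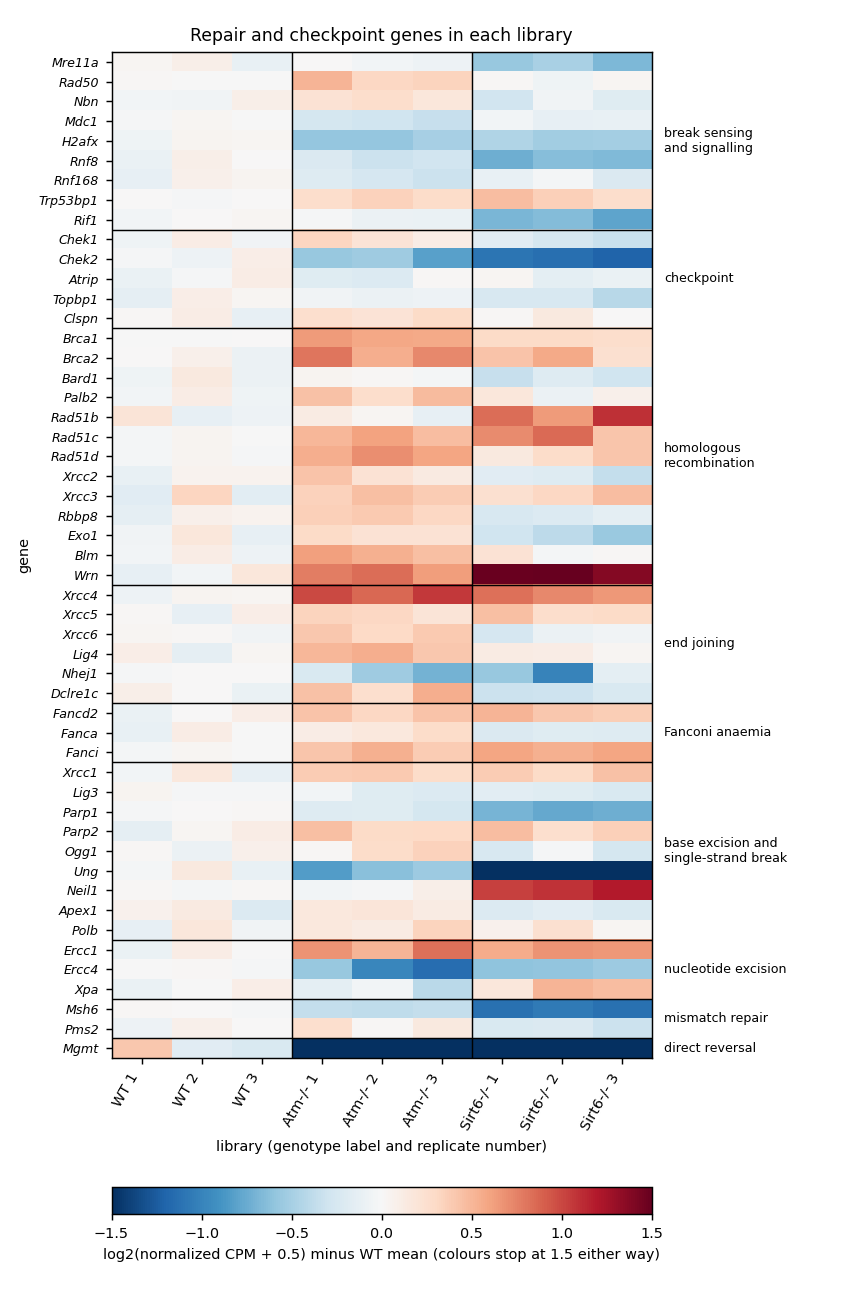
Level of the 51 genes in each of the 9 libraries, as log2(normalized CPM + 0.5) minus the mean of the 3 WT libraries, with genes in rows by pathway and colours that stop at 1.5 in either direction. The homologous recombination block is mostly red in the 3 libraries labelled *Atm-/-*, and *Mgmt* is blue in all 6 mutant libraries.

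The promoters of the list were read for 3 sequence motifs of cell cycle genes, since many repair genes are made under the control of E2F factors. RefSeq promoter windows of 250 bases before to 50 after the start, on GRCm38.p6, were found for 40 of the 51 genes, 44 windows in all since 4 genes have 2 starts. An E2F motif (TTTCCCGC or TTTGGCGC, either strand) stood in 7 of the 44 windows (15.9%), against 1.6% of all 32851 windows, which were not matched for base content. The CCAAT box (CCAAT, either strand) stood in 23 (52.3% against 37.4%) and the CHR element (TTTGAA, either strand) in 3 (6.8% against 17.9%). Among the 77 other repair genes described below, the E2F motif stood in 2 of 69 windows (2.9%), the CCAAT box in 38 and the CHR element in 9. In 15 windows of cell cycle markers they stood in 3, 12 and 5. A match of letters is not evidence of binding.

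The 7 E2F matches are shown because the genes that carry them went in different directions. Each line is 30 bases read 5′ to 3′ along the gene, with the match in capitals.
Bard1, chr1:71103163-71103192, minus strand: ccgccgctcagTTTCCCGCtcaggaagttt
Brca2, chr5:150522442-150522471, plus strand: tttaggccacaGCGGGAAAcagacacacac
Chek2, chr5:110839820-110839849, plus strand: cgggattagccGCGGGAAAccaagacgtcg
Mdc1, chr17:35841471-35841500, plus strand: tcttcagcctgTTTCCCGCcggtagccgca
Msh6, chr17:87975054-87975083, plus strand: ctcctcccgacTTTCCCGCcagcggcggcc
Rad51c, chr11:87404941-87404970, minus strand: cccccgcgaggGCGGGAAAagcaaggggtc
Xrcc6, chr15:82016312-82016341, plus strand: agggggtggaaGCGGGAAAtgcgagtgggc
All 7 hold TTTCCCGC or its reverse complement. The first base of the match lies 209 bases before the start in *Bard1*, 168 in *Brca2*, 152 in *Chek2*, 46 in *Xrcc6*, 16 in *Mdc1* and 5 in *Rad51c* (at the second of its 2 RefSeq starts), and at base 16 after the start in *Msh6*. Of these genes *Brca2*, *Rad51c* and *Xrcc6* were higher in the libraries labelled *Atm-/-*, *Chek2*, *Mdc1* and *Msh6* were lower, and *Bard1* passed neither way.

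Break sensing and signalling genes went both ways, with 3 of 9 higher and 4 lower in the libraries labelled *Atm-/-* (33.3% and 44.4%, against 34.7% and 33.6% of all genes) and 1 higher and 5 lower in *Sirt6-/-* (11.1% and 55.6%, against 39.2% and 37.4%). With library totals the counts were 3 and 2 in the libraries labelled *Atm-/-* and 1 and 4 in *Sirt6-/-*. The shares of all genes under that scaling were 46.3% and 25% in the former and 43.9% and 32.7% in the latter. The MRN complex, which holds broken ends together and recruits ATM, is made of the products of *Mre11a*, *Rad50* and *Nbn*. *Mre11a*, its nuclease, fell in *Sirt6-/-* by 1.49-fold (log2 -0.58 ± 0.07, SE, n = 3) and gave -0.05 ± 0.06 in the libraries labelled *Atm-/-*, which did not pass. *Rad50*, its coiled-coil tether, rose in the libraries labelled *Atm-/-* (log2 0.39 ± 0.06) and gave 0.00 ± 0.06 in *Sirt6-/-*. *Nbn*, the subunit that binds ATM, rose by 0.21 ± 0.06 in the former and fell in the latter (log2 -0.17 ± 0.07). The *Sirt6-/-* call rested on an adjusted p of 0.0495 in edgeR, close to the threshold. It was lost without WT replicate 3, *Sirt6-/-* replicate 1 or *Sirt6-/-* replicate 3 (edgeR, adjusted p 0.151, 0.207 and 0.106). A stricter filter, a mean of at least 50 counts, and library totals lost it too (edgeR, adjusted p 0.0658 and 0.333). The 3 genes of the complex thus did not move as 1 unit in either mutant.

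Downstream of the MRN complex, *H2afx* was lower in both. It read 144, 155 and 154 CPM in WT, 100.4, 101 and 107 in the libraries labelled *Atm-/-* and 109.9, 104 and 106 in *Sirt6-/-*, so that no mutant library reached a WT one (log2 -0.56 ± 0.05 and -0.50 ± 0.05). *Mdc1*, the mediator that reads phosphorylated H2A.X, fell in the libraries labelled *Atm-/-* (log2 -0.31 ± 0.05), and the ubiquitin ligases *Rnf8* and *Rnf168* that act next fell there too (log2 -0.29 ± 0.07 and -0.27 ± 0.07). *Rnf8* fell further in *Sirt6-/-* (log2 -0.68 ± 0.07), while *Mdc1* and *Rnf168* gave -0.09 and -0.12 there without a call. The *Rnf8* and *Rnf168* calls in the libraries labelled *Atm-/-* were lost when libraries were scaled to their totals. *Trp53bp1*, whose product 53BP1 shields ends from resection, rose in both (log2 0.29 ± 0.05 and 0.37 ± 0.06). *Rif1*, the effector that 53BP1 recruits, fell in *Sirt6-/-* (log2 -0.71 ± 0.05), from 181, 187 and 189.6 CPM in WT to 115, 118 and 107, and gave -0.08 ± 0.04 in the libraries labelled *Atm-/-*.

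Checkpoint genes were led by *Chek2*, the kinase that ATM phosphorylates. *Chek2* read 27.6, 26.5 and 30.1 CPM in WT, 18.8, 19.2 and 15.8 in the libraries labelled *Atm-/-* and 12.9, 12.5 and 11.9 in *Sirt6-/-*. The 3 groups did not overlap, with WT highest and *Sirt6-/-* lowest. It fell by 1.57-fold in the libraries labelled *Atm-/-* (log2 -0.65 ± 0.09, edgeR, adjusted p = 2.32e-05) and by 2.26-fold in *Sirt6-/-* (log2 -1.17 ± 0.09, adjusted p = 1.51e-08), and the direct comparison put it 1.45-fold higher in the former (adjusted p = 7.11e-05). The gene lies at chr5:110839979-110874145 on the plus strand in GENCODE on GRCm38, and no annotated exon of another gene overlaps its exons. The 250 bases before its start, shown because they hold an E2F match together with 2 CCAAT boxes, read as follows, with the E2F match in capitals.
Chek2, chr5:110839733-110839982, plus strand: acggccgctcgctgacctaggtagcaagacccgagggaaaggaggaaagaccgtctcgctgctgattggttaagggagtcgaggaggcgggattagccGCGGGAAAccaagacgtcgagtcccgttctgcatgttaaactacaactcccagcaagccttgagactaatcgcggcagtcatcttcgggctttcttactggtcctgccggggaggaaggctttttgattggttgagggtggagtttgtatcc

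The other checkpoint genes belong to the ATR branch, which answers to stalled replication. *Chek1*, the kinase of that branch, rose by 0.21 ± 0.08 on the log2 scale in the libraries labelled *Atm-/-* and fell in *Sirt6-/-* (log2 -0.26 ± 0.08). Its call in the libraries labelled *Atm-/-* was lost without WT replicate 1, WT replicate 3 or *Atm-/-* replicate 1 (edgeR, adjusted p 0.0879, 0.0898 and 0.118). *Clspn*, the adaptor claspin that brings CHK1 to ATR, rose in the libraries labelled *Atm-/-* (log2 0.24 ± 0.06) and gave 0.06 ± 0.07 in *Sirt6-/-*. *Topbp1*, which switches ATR on, fell in *Sirt6-/-* (log2 -0.30 ± 0.06) and gave -0.08 ± 0.05 in the libraries labelled *Atm-/-*. *Atrip*, the partner of ATR, passed no comparison (-0.13 ± 0.09 and -0.08 ± 0.09 against WT).

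The homologous recombination genes on the list were mostly higher in the libraries labelled *Atm-/-*. Of 13 genes 11 rose and none fell (84.6% and 0%, against 34.7% and 33.6% of all genes), and the median log2 fold change was 0.40. In *Sirt6-/-* 7 rose and 4 fell (53.8% and 30.8%, against 39.2% and 37.4% of all genes), with a median of 0.28. With library totals 7 rose and 1 fell there, where 43.9% and 32.7% of all genes did so under that scaling. The summed level of the 13 ran from 300.4 to 329.6 CPM in WT, from 418.6 to 444.7 in the libraries labelled *Atm-/-* and from 354.2 to 374.5 in *Sirt6-/-*, so the 3 groups did not overlap. The count of rises in the libraries labelled *Atm-/-* was 11 under each other scaling, filter and test tried and 9 to 11 when single libraries were left out.

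*Brca1* and *Brca2*, tumour suppressors of the recombination pathway, rose in both. *Brca1* read 58.2, 58 and 58.8 CPM in WT, 91, 87.5 and 86.5 in the libraries labelled *Atm-/-* and 71.2, 71.3 and 69.9 in *Sirt6-/-*, with a narrow spread and no overlap between groups. *Brca2* read 31.9, 33.5 and 29.7 CPM in WT, 55.5, 46.4 and 52.4 in the libraries labelled *Atm-/-* and 42.8, 47.2 and 37.4 in *Sirt6-/-*, with the highest *Sirt6-/-* library above the lowest one labelled *Atm-/-*. The log2 fold changes in the libraries labelled *Atm-/-* were 0.59 ± 0.05 for *Brca1* and 0.69 ± 0.08 for *Brca2*, and in *Sirt6-/-* 0.28 ± 0.05 and 0.42 ± 0.09. *Bard1*, the partner of BRCA1 in its ubiquitin ligase, gave 0.00 ± 0.09 in the libraries labelled *Atm-/-* and fell in *Sirt6-/-* (log2 -0.29 ± 0.09). *Palb2*, the bridge between BRCA1 and BRCA2, rose in the libraries labelled *Atm-/-* (log2 0.40 ± 0.12) and gave 0.06 ± 0.13 in *Sirt6-/-*.

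The 5 genes *Rad51b*, *Rad51c*, *Rad51d*, *Xrcc2* and *Xrcc3*, which assist strand exchange, showed no single pattern. *Rad51c* and *Rad51d* rose in both mutants, by 0.55 ± 0.13 and 0.62 ± 0.08 in the libraries labelled *Atm-/-* and by 0.71 ± 0.14 and 0.29 ± 0.09 in *Sirt6-/-* on the log2 scale. *Rad51b* read 4.74, 3.71 and 3.84 CPM in WT, 4.47, 4.17 and 3.69 in the libraries labelled *Atm-/-* and 7.67, 6.61 and 9.27 in *Sirt6-/-*. The *Sirt6-/-* libraries lay above all others for it, by 1.92-fold over WT (edgeR, adjusted p = 0.000187). *Xrcc2* rose in the libraries labelled *Atm-/-* (log2 0.26 ± 0.09) and fell in *Sirt6-/-* (log2 -0.25 ± 0.09), and *Xrcc3* rose in both (log2 0.38 ± 0.14 and 0.34 ± 0.14). The smaller of these calls changed when single libraries were left out. In the libraries labelled *Atm-/-*, *Xrcc2* was lost without WT replicate 1 or *Atm-/-* replicate 1 and *Xrcc3* without WT replicate 1, WT replicate 3 or *Atm-/-* replicate 2 (edgeR, adjusted p 0.0659 to 0.114). In *Sirt6-/-*, *Xrcc2* was lost without WT replicate 3 or *Sirt6-/-* replicate 3 (0.0516 and 0.0923), *Xrcc3* in 4 of 6 such fits (0.0727 to 0.167) and *Rad51d* without *Sirt6-/-* replicate 3 (0.0632).

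Resection and helicase genes separated the mutants further. *Rbbp8*, which encodes the resection factor CtIP, rose in the libraries labelled *Atm-/-* (log2 0.35 ± 0.07) and fell in *Sirt6-/-* (log2 -0.20 ± 0.07). *Exo1*, the nuclease that extends resection, did the same (log2 0.23 ± 0.08 and -0.42 ± 0.09). The *Exo1* rise was lost without WT replicate 3 or *Atm-/-* replicate 1 (edgeR, adjusted p 0.0799 and 0.0529), and the *Rbbp8* fall without WT replicate 3, *Sirt6-/-* replicate 1 or *Sirt6-/-* replicate 2 (adjusted p 0.0600, 0.0763 and 0.0583). *Blm*, a RecQ helicase that takes recombination intermediates apart, rose in the libraries labelled *Atm-/-* (log2 0.53 ± 0.08) and gave 0.07 ± 0.09 in *Sirt6-/-*.

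*Wrn*, the RecQ helicase lost in Werner syndrome, a disease of early ageing, showed the largest rise of the list in *Sirt6-/-*. It read 18.7, 19.9 and 23 CPM in WT, 35.3, 36.8 and 32 in the libraries labelled *Atm-/-* and 58.2, 62.8 and 53.7 in *Sirt6-/-*. Every library of a group lay above every library of the group before it. The rise was 1.68-fold in the libraries labelled *Atm-/-* (log2 0.75 ± 0.09, edgeR, adjusted p = 4.19e-06) and 2.84-fold in *Sirt6-/-* (log2 1.51 ± 0.09, adjusted p = 6.73e-10), and the level in *Sirt6-/-* was 1.67-fold above that in the libraries labelled *Atm-/-* (adjusted p = 4.96e-09).

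**Figure D2:**
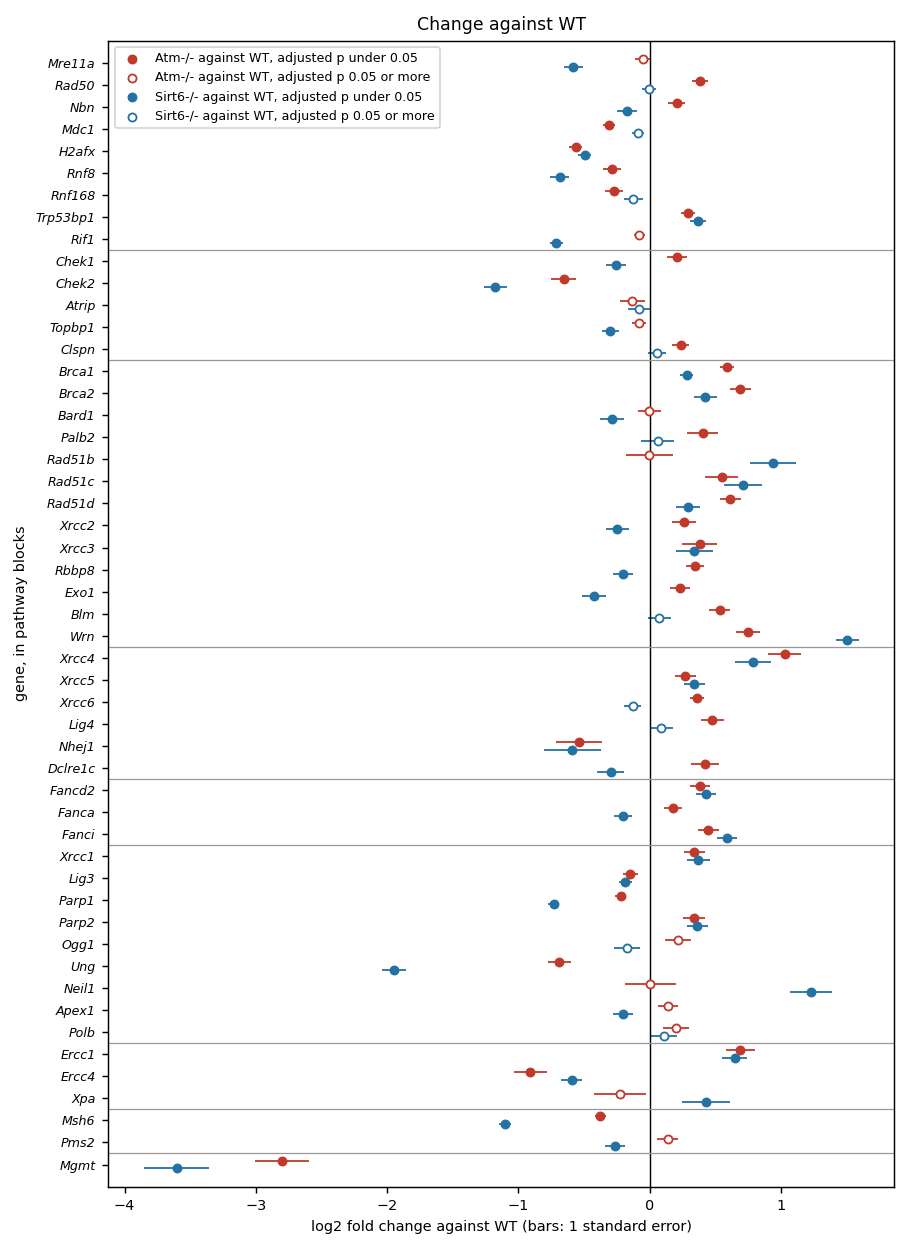
Log2 fold change against WT of the 51 genes, in pathway blocks, for the libraries labelled *Atm-/-* (red) and *Sirt6-/-* (blue), with bars of 1 standard error and filled points where the adjusted p was under 0.05. Most points lie within 1 of 0, *Mgmt* lies at -2.80 and -3.60, and *Ung*, *Chek2* and *Msh6* lie lower in *Sirt6-/-* than in the libraries labelled *Atm-/-*.

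The end joining genes on the list rose in 5 of 6 cases in the libraries labelled *Atm-/-* (83.3%, with 1 lower, against 34.7% and 33.6% of all genes). In *Sirt6-/-* 2 were higher and 2 lower (33.3% each, near the 39.2% and 37.4% of all genes). The 2 falls in *Sirt6-/-* were both lost without *Sirt6-/-* replicate 1 or 2, and 1 was lost with library totals. *Xrcc4*, the scaffold that holds the ligase to the break, was the only gene of the list to reach a 2-fold rise in the libraries labelled *Atm-/-*. It read 5.05, 5.53 and 5.49 CPM in WT, 11.1, 10.1 and 11.7 in the libraries labelled *Atm-/-* and 9.88, 9.18 and 8.67 in *Sirt6-/-*, so that both mutants lay above WT without overlap. The rise was 2.04-fold (log2 1.03 ± 0.13, edgeR, adjusted p = 5.71e-06) and 1.73-fold (log2 0.79 ± 0.14, adjusted p = 9.62e-05). The mutants differed from each other by 0.26 ± 0.12 with an adjusted p of 0.0512 in edgeR, which missed the threshold. Values of 0.0187 with library totals, 0.0454 with size factors from DESeq2 and 0.0360 in edgeR's exact test passed it.

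Of the partners of XRCC4, *Lig4*, the ligase that seals the break, rose in the libraries labelled *Atm-/-* (log2 0.48 ± 0.09) and gave 0.09 ± 0.09 in *Sirt6-/-*. *Nhej1*, which encodes the XRCC4-like factor XLF, fell in both (log2 -0.53 ± 0.17 and -0.59 ± 0.22) but at low and scattered levels, 3.59, 2.53 and 4.98 CPM in *Sirt6-/-* against 5.49, 5.63 and 5.62 in WT. Its call in *Sirt6-/-* was lost without *Sirt6-/-* replicate 1 or 2 (edgeR, adjusted p 0.0633 and 0.105) and in the libraries labelled *Atm-/-* without *Atm-/-* replicate 3 (0.0690) or with library totals (0.0715). *Xrcc5* and *Xrcc6* encode the Ku80 and Ku70 subunits of the ring that caps broken ends. *Xrcc5* rose in both mutants (log2 0.27 ± 0.08 and 0.34 ± 0.08), while *Xrcc6* rose in the libraries labelled *Atm-/-* (log2 0.36 ± 0.05) and gave -0.13 ± 0.06 in *Sirt6-/-*. *Dclre1c*, which encodes the end-trimming nuclease Artemis, rose in the former (log2 0.42 ± 0.10) and fell in the latter (log2 -0.30 ± 0.10), the fall being lost without WT replicate 1, *Sirt6-/-* replicate 1 or *Sirt6-/-* replicate 2 (edgeR, adjusted p 0.0504 to 0.0564).

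All 3 Fanconi anaemia genes, which act on DNA cross-links, rose in the libraries labelled *Atm-/-*, and in *Sirt6-/-* 2 rose and 1 fell, where 34.7% of all genes rose in the former and 39.2% rose and 37.4% fell in the latter. The fall was lost with library totals. *Fancd2* and *Fanci* encode the pair that is loaded on the damaged fork. *Fancd2* rose by 0.38 ± 0.08 and 0.43 ± 0.08 on the log2 scale and *Fanci* by 0.45 ± 0.08 and 0.59 ± 0.08. *Fanca*, of the core complex that activates the pair, rose by 0.18 ± 0.07 in the libraries labelled *Atm-/-* and fell in *Sirt6-/-* (log2 -0.20 ± 0.07). The *Fanca* rise was lost in 4 of the 6 fits that left out 1 library (edgeR, adjusted p 0.0512 to 0.154).

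Base excision and single-strand break repair held both rises and falls, with 2 of 9 higher and 3 lower in the libraries labelled *Atm-/-* and 3 higher and 4 lower in *Sirt6-/-*. These shares (22.2% and 33.3%, then 33.3% and 44.4%) lay near or below those of all genes for rises (34.7% and 39.2%) and near or above them for falls (33.6% and 37.4%). With library totals both balances turned, to 5 higher and 1 lower in the libraries labelled *Atm-/-* and 3 higher and 2 lower in *Sirt6-/-*. The shares of all genes moved the same way, to 46.3% higher and 25% lower in the former and 43.9% and 32.7% in the latter. The glycosylases, which cut out the altered base, went apart. *Ung*, which removes uracil, read 41.3, 46.8 and 39.1 CPM in WT, 23.4, 27.2 and 28.8 in the libraries labelled *Atm-/-* and 11.2, 10.0 and 11.7 in *Sirt6-/-*. The groups did not overlap and *Sirt6-/-* was the lowest, 3.86-fold below WT (log2 -1.95 ± 0.09, edgeR, adjusted p = 8.44e-11), with the libraries labelled *Atm-/-* 1.61-fold below WT (log2 -0.69 ± 0.09, adjusted p = 9.78e-06). *Neil1*, which removes oxidised pyrimidines, read 2.98, 2.88 and 2.98 CPM in WT, 2.86, 2.91 and 3.16 in the libraries labelled *Atm-/-* and 6.54, 6.8 and 7.38 in *Sirt6-/-*. WT and the libraries labelled *Atm-/-* overlapped, and *Sirt6-/-* lay 2.34-fold above WT (log2 1.23 ± 0.16, edgeR, adjusted p = 6.84e-06). *Ogg1*, which removes oxidised guanine, passed neither comparison with WT (0.21 ± 0.10 and -0.17 ± 0.10).

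The other genes of the pathway moved less. *Parp1* fell in both mutants, from 248, 250.3 and 252 CPM in WT to 219, 219.8 and 209 in the libraries labelled *Atm-/-* and 155, 147 and 150.3 in *Sirt6-/-*, and its smaller relative *Parp2* rose in both (log2 0.34 ± 0.08 and 0.36 ± 0.08). The 2 genes thus moved in opposite directions in each mutant, the *Parp1* fall in the libraries labelled *Atm-/-* being lost with library totals (edgeR, adjusted p = 0.247). *Xrcc1*, the scaffold of nick repair, rose in both (log2 0.34 ± 0.08 and 0.37 ± 0.08), while *Lig3*, the ligase bound to it, fell in both (log2 -0.15 ± 0.06 and -0.19 ± 0.05). The *Lig3* fall in the libraries labelled *Atm-/-* turned to 0.016 with library totals and was lost in 4 of the 6 fits that left out 1 library (edgeR, adjusted p 0.0503 to 0.161). *Apex1*, the endonuclease that cuts at the vacated site, gave 0.14 ± 0.07 in the libraries labelled *Atm-/-* and fell in *Sirt6-/-* (log2 -0.21 ± 0.08), a call lost in 4 of 6 such fits (adjusted p 0.0556 to 0.0810). *Polb*, the polymerase that fills the gap, passed no comparison (0.20 ± 0.10 and 0.11 ± 0.10 against WT).

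Reads without strand cannot be assigned between genes that overlap, and 9 of the 51 genes share at least 10% of their annotated exonic bases with another gene. *Apex1* shares the most, 61.7% with *Pip4p1* on the opposite strand, and its values are uncertain for that reason. *Lig3* shares 25.1% with *Rffl*, *Atrip* 16.0% with *Trex1*, *Fanci* 16.0% with *Polg*, *Trp53bp1* 15.04% with *Tubgcp4*, *Rnf8* 13.2%, *Ogg1* 10.6%, *Fanca* 10.5% and *H2afx* 10.2%. The overlaps of *Atrip* and *Rnf8* are on the same strand and the others on the opposite one.

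Nucleotide excision repair was represented by 3 genes. *Ercc1* and *Ercc4* encode the subunits of the ERCC1-XPF nuclease, which cuts beside the lesion, and they moved in opposite directions. *Ercc1* rose in both mutants (log2 0.69 ± 0.11 and 0.65 ± 0.10), from 11.4, 13.2 and 12.2 CPM in WT to 19.9, 17.7 and 22.2 in the libraries labelled *Atm-/-* and 18.3, 19.9 and 19.4 in *Sirt6-/-*. *Ercc4* fell in both (log2 -0.91 ± 0.13 and -0.59 ± 0.08), from 24.4, 25 and 24.3 CPM in WT to 16.4, 12.2 and 10.9 in the libraries labelled *Atm-/-* and 16, 16.2 and 16.7 in *Sirt6-/-*. No mutant library overlapped WT for either gene. *Xpa*, the scaffold that verifies the lesion, gave -0.23 ± 0.20 in the libraries labelled *Atm-/-* and 0.43 ± 0.18 in *Sirt6-/-* (edgeR, adjusted p = 0.044), a call that was lost in 5 of 6 fits without 1 library and with a replicate block and with the Wald test of DESeq2 (adjusted p = 0.0654 and 0.0623).

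The mismatch repair genes on the list were *Msh6* and *Pms2*. *Msh6*, whose product recognises a mispaired base, read 245, 242 and 239 CPM in WT, 188, 186 and 188 in the libraries labelled *Atm-/-* and 111, 116 and 111 in *Sirt6-/-*. The spread within each group was narrow and the 3 groups did not overlap. It fell by 1.3-fold in the libraries labelled *Atm-/-* (log2 -0.38 ± 0.04, edgeR, adjusted p = 1.58e-06) and by 2.15-fold in *Sirt6-/-* (log2 -1.10 ± 0.05, adjusted p = 1.27e-11). *Pms2*, whose product nicks the new strand, fell in *Sirt6-/-* (log2 -0.26 ± 0.08) and gave 0.14 ± 0.08 in the libraries labelled *Atm-/-*, and with library totals the fall was lost (edgeR, adjusted p = 0.0589) and the value in the libraries labelled *Atm-/-* became 0.30 and passed (adjusted p = 0.00464).

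*Mgmt*, whose product takes alkyl groups off guanine in a single step and is used up in doing so, showed the largest change of the list in both mutants. The libraries held 600, 389 and 375 reads of it in WT, 61, 87 and 67 in those labelled *Atm-/-* and 23, 43 and 50 in *Sirt6-/-*. Scaled, these were 18.8, 12.4 and 11.9 CPM in WT, 1.76, 2.48 and 1.98 in the libraries labelled *Atm-/-* and 0.706, 1.33 and 1.5 in *Sirt6-/-*. WT replicate 1 lay above the other WT libraries, and the lowest WT library was still above every mutant one. It fell by 6.96-fold in the libraries labelled *Atm-/-* (log2 -2.80 ± 0.20, edgeR, adjusted p = 1.57e-08) and by 12.2-fold in *Sirt6-/-* (log2 -3.60 ± 0.25, adjusted p = 5.37e-09). The mutants differed by 0.82 ± 0.31 (edgeR, adjusted p = 0.0229), a call that was lost without *Sirt6-/-* replicate 1 or *Atm-/-* replicate 2 (adjusted p = 0.113 and 0.1004). The gene lies at chr7:136894614-137130266 on the plus strand, with no exon of another gene over its own. The 250 bases before the first of its 2 RefSeq starts, shown for comparison with those of *Chek2*, hold none of the 3 motifs.
Mgmt, chr7:136894336-136894585, plus strand: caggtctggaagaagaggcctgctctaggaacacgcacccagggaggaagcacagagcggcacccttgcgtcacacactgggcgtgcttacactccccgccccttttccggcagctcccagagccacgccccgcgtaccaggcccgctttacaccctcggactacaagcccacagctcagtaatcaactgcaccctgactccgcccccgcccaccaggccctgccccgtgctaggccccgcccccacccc

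**Figure D3:**
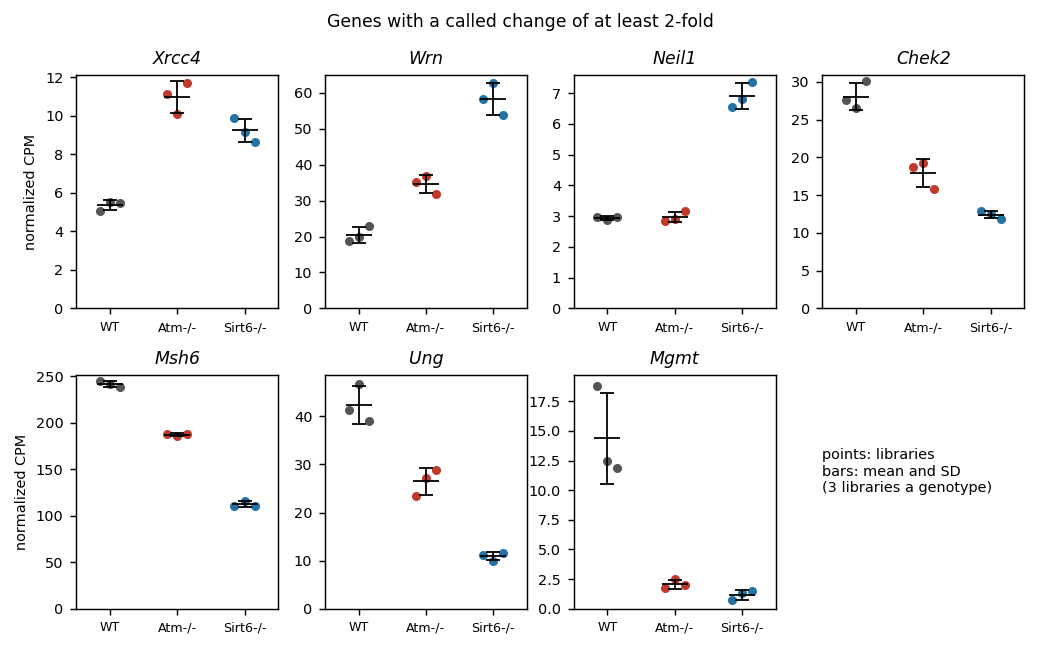
Normalized CPM of the 7 genes with a called change of at least 2-fold, with a point for each library, the mean and an SD bar for each label (n = 3), on axes that start at 0. *Xrcc4* is above WT in both mutants, *Neil1* in *Sirt6-/-* only, *Wrn* climbs and *Chek2*, *Msh6* and *Ung* descend from WT to *Atm-/-* to *Sirt6-/-*, and *Mgmt* is near the floor of the axis in both mutants.

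Compared directly, the libraries labelled *Atm-/-* held more of most repair and checkpoint transcripts than *Sirt6-/-*. Of 51 genes, 29 were higher in the libraries labelled *Atm-/-* (56.9%, against 38% of all 13460 genes tested) and 6 were lower (11.8%, against 37.8%), with a median of 0.30 beside 0.00 over all genes. At 2-fold or more 1 was higher and 1 lower, against 11.3% and 14.2% of all genes. These were *Ung*, 2.42-fold higher (log2 1.28 ± 0.10, edgeR, adjusted p = 2.17e-10), and *Neil1*, 2.31-fold lower (log2 -1.21 ± 0.16, adjusted p = 8.93e-07). With library totals the split was 30 higher and 5 lower (58.8% and 9.8%, against 41.2% and 34.8% of all genes under that scaling).

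By pathway, higher calls made up 9 of 13 in homologous recombination, 5 of 9 in break sensing, 4 of 5 checkpoint genes, 4 of 9 in base excision, 3 of 6 in end joining, 1 of 3 Fanconi genes and both mismatch repair genes, against 38% of all genes. Among the higher genes the largest differences after *Ung* and *Mgmt* were in *Msh6* (log2 0.74 ± 0.04), *Dclre1c* (0.73 ± 0.10), *Exo1* (0.67 ± 0.07) and *Rif1* (0.65 ± 0.05). The 6 lower genes were *Neil1*, *Rad51b* (-0.93 ± 0.16), *Wrn* (-0.74 ± 0.07), *Xpa* (-0.64 ± 0.19), *Ercc4* (-0.30 ± 0.12) and *Mdc1* (-0.20 ± 0.04). The *Ercc4* call was lost without *Atm-/-* replicate 2 or 3, without *Sirt6-/-* replicate 2 or 3 and with library totals (edgeR, adjusted p 0.0616 to 0.188). The 3 nucleotide excision repair genes on the list gave no higher call and 2 lower ones. Of 11 other genes of that pathway, outside the list, 6 were higher and 2 lower (54.5% and 18.2%, against 38% and 37.8% of all genes).

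Markers of dividing cells also differed between the labels. Of 18 genes that mark the G1/S and G2/M phases, 10 were higher and 4 lower in the libraries labelled *Atm-/-* than in WT, 2 higher and 11 lower in *Sirt6-/-* than in WT, and 17 higher and 0 lower in the libraries labelled *Atm-/-* than in *Sirt6-/-*. As shares these were 55.6% and 22.2% (34.7% and 33.6% of all genes), 11.1% and 61.1% (39.2% and 37.4%), and 94.4% and 0% (38% and 37.8%). Their summed level ran from 3985 to 4368 CPM in WT, from 4598 to 4696 in the libraries labelled *Atm-/-* and from 3261 to 3460 in *Sirt6-/-*. *Pcna*, the replication clamp, fell in *Sirt6-/-* (log2 -0.43 ± 0.05) and gave 0.03 ± 0.05 in the libraries labelled *Atm-/-*, and *Mki67*, the antigen Ki-67, gave -0.07 and 0.02 without a call. The part of these differences in the repair gene values was not tested.

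**Figure D4:**
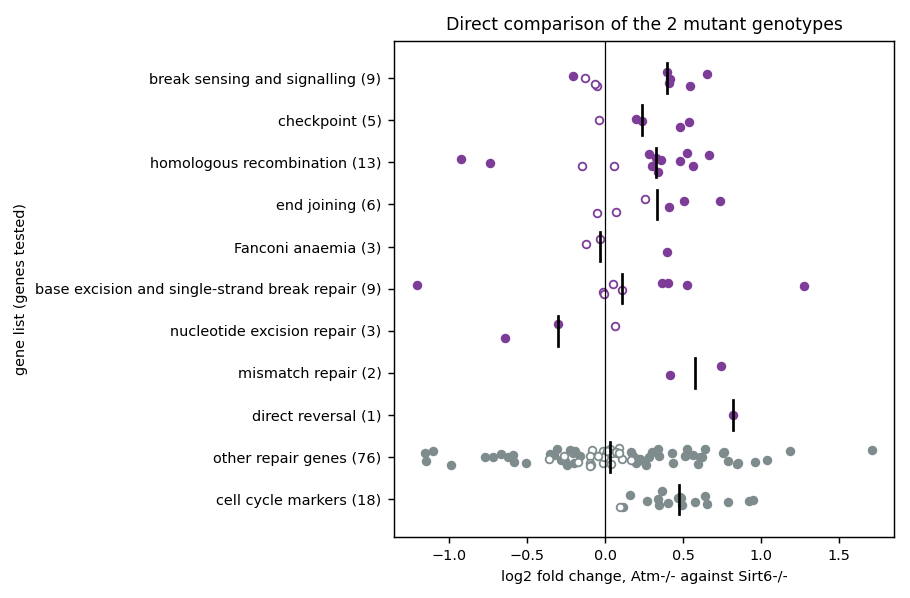
Log2 fold change of the libraries labelled *Atm-/-* against *Sirt6-/-* for the 9 pathways of the list (purple), for 76 other repair genes and for 18 cell cycle markers (grey), with a point for each gene, filled where the adjusted p was under 0.05, and a black line at each median. The pathway medians run from -0.30 in nucleotide excision repair to 0.82 in direct reversal, which is *Mgmt* alone. They are 0.03 over the other repair genes and 0.47 over the cell cycle markers. The median over the 51 genes together, 0.30, has no line.

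A further 77 repair genes outside the list, of which 76 could be tested, gave the same comparison for the rest of the machinery. They include *Atm* itself, the gene targeted in 1 label. *Atm* was called higher in the libraries labelled *Atm-/-*, in *Sirt6-/-* and in the direct comparison (log2 1.04, 0.46 and 0.59). In the libraries labelled *Atm-/-* 32 were higher and 16 lower than WT (42.1% and 21.1%, against 34.7% and 33.6% of all genes), and in *Sirt6-/-* 29 were higher and 23 lower (38.2% and 30.3%, against 39.2% and 37.4%). In the direct comparison 30 were higher and 22 lower in the libraries labelled *Atm-/-* (39.5% and 28.9%, against 38% and 37.8%), so the higher shares in *Sirt6-/-* and in the direct comparison were near the background. Their medians were 0.12, 0.06 and 0.03. Both lists thus had more higher than lower calls in the libraries labelled *Atm-/-*, and the difference between the lists was not tested. By pathway the lists did not always match. In the libraries labelled *Atm-/-*, 7 of 14 other recombination genes were higher and 2 lower (50% and 14.3%). Of 10 other Fanconi genes 5 were higher and 0 lower there. Of 4 other end joining genes 2 were higher and 2 lower there (50% each), and 0 higher and 3 lower (75%) in the direct comparison. In *Sirt6-/-* 4 of 8 other break sensing genes, *Atm* among the 4, were higher and 2 lower (50% and 25%).

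Single genes outside the list changed by more than most of those on it. *Mlh3*, a MutL homologue used in meiotic crossing over, read 4.7, 3.58 and 2.48 CPM in WT, 12.2, 10.6 and 11 in the libraries labelled *Atm-/-* and 25.7, 21.9 and 25.3 in *Sirt6-/-* (log2 1.64 ± 0.19 and 2.76 ± 0.17). *Fancf*, an adaptor of the Fanconi core complex, rose from 1.57, 1.73 and 1.56 CPM in WT to 5.34, 4.51 and 5.43 in the libraries labelled *Atm-/-* and 4.66, 5.13 and 5.13 in *Sirt6-/-* (log2 1.65 ± 0.20 and 1.62 ± 0.20). Both genes were higher in all 6 mutant libraries than in any WT one. *Neil3*, a glycosylase related to NEIL1, rose from 13.8, 13.7 and 16.4 CPM in WT to 34.5, 39.9 and 38.6 in the libraries labelled *Atm-/-* and 44.3, 41 and 41.5 in *Sirt6-/-* (log2 1.36 ± 0.09 and 1.53 ± 0.09). *Dna2*, the nuclease that resects ends beside EXO1, read 30.7, 34.9 and 33.4 CPM in WT, 33.9, 33.7 and 33.9 in the libraries labelled *Atm-/-* and 10.2, 11.6 and 9.33 in *Sirt6-/-*, a fall in *Sirt6-/-* of 3.17-fold (edgeR, adjusted p = 8.97e-10).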

How the data were processed

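Poly(A) RNA of 9 MEF samples, 3 for each of 3 genotype labels, had been sequenced by the authors, and the labels name mm10 as the genome build. The aligner and the counter are not given in the sources used here. The deposited tables hold read counts per gene and RPKM, which the authors computed from those counts and a gene length. Library totals ran from 32187040 to 33837949 reads. Samples were grouped by the genotype label.

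Counts were tested with edgeR 4.0.16 in R 4.3.3 (filterByExpr, TMM, quasi-likelihood F test, two-sided), each pair of labels on its own, with Benjamini-Hochberg adjustment over all genes tested and a threshold of 0.05. Standard errors are the log2 fold change divided by the square root of F. CPM were scaled by TMM over all 9 samples, and levels between genes were compared in deposited RPKM. Counts were simulated with the gene means and totals of these libraries, but with a fixed spread set for all genes and not estimated. There the test called all 200 genes set to a 2-fold change in each comparison, with 7 to 14 false calls. The changed genes were drawn from those with many reads, so changes under 2-fold and genes with few reads were not covered. Alternatives were library totals, size factors and the Wald test of DESeq2 1.42.0, edgeR's exact test, other filters, 1 fit over all samples, a replicate block and leaving out each library. Values in every sample are given for genes of the list called at 2-fold or more in any comparison, and other repair genes are named where their call against WT reached 1.5 on the log2 scale. The genes, the lists and the tests were chosen with earlier results of these data known. Positions are from GENCODE on GRCm38 and promoter windows from RefSeq on GRCm38.p6, with no entry used for 11 of the 51 genes.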

Additional observations from a re-analysis of the deposited data

How the results depend on the processing

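With library totals the counts of lower genes were 7 in the libraries labelled *Atm-/-* (12 with TMM) and 13 in *Sirt6-/-* (23 with TMM), and *Lig3* turned from -0.15 to 0.016 in the former. The other 4 falls lost in the former were those of *Rnf8*, *Rnf168*, *Nhej1* and *Parp1*. The 10 falls lost in *Sirt6-/-* were those of *Nbn*, *Chek1*, *Bard1*, *Xrcc2*, *Rbbp8*, *Dclre1c*, *Fanca*, *Lig3*, *Apex1* and *Pms2*. Leaving out each library gave 23 to 29 higher and 10 to 12 lower genes in the libraries labelled *Atm-/-*, 14 to 17 and 18 to 22 in *Sirt6-/-*, and 28 to 29 and 5 to 7 in the direct comparison. *Topbp1*, *Apex1*, *Polb*, *Ogg1* and *Pms2* in the libraries labelled *Atm-/-*, and *Rnf168*, *Xrcc6* and *Ogg1* in *Sirt6-/-*, passed only under some alternatives, as did *Xrcc4* and *Rnf168* directly. These were fits without certain libraries or with another scaling, and also the exact test for *Xrcc4* and the fit over all samples for *Xrcc6*. Of 2142 single values under the alternatives, 2049 kept their side of the threshold. Those that were called kept their direction too, while values without a call could change sign and still be counted. Fitted with a replicate block, the counts were 27 and 12, 16 and 23, and 29 and 6, and 1 of 153 calls changed (*Xpa*). Same-numbered samples deviated with correlations of -0.02 to 0.08 and not every sample correlated best with its own number, so the numbers were not taken to pair samples. With 3 libraries a label, genes with few reads, such as *Mgmt*, *Nhej1* and *Xpa*, had standard errors of 0.17 to 0.31 on the log2 scale.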
